A study of Mus musculus with 2 samples.

Results

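The 36 Hox genes and Hox antisense transcripts named on an Affymetrix mouse genome array were compared between the colon and the small intestine. Members were taken by symbol alone, as every gene called Hox with a cluster letter A to D and a paralogue number, with or without the ending of an antisense transcript, among 18194 genes with a probe set that named 1 gene. They comprised 33 coding genes and 3 antisense transcripts, Hoxa11os, Hoxb5os and Hoxd3os1, and were read by 53 probe sets. The brightest probe set over both tissues stood for each gene. Of 43 such genes in the RefSeq table, 7 were not analysed here. The 3 probe sets that named a pair of Hox genes were not used.

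The series held 2 arrays, 1 of labelled total RNA from colon biopsy tissue and 1 from small intestine biopsy tissue, both of adult wild-type mice, and served to check transcript data obtained by other techniques. The number of animals behind each array, and the part of each organ sampled, are not given in the labels. The methods of the study name jejunum and distal colon of C57B6 mice as sources of its RNA, but they place its arrays in another deposited series, so whether this holds for these arrays is not settled. With 1 array per tissue no difference had a replicate check and no test was run. A gene counted as higher in a tissue when its log2 values, with those under the background level of 5 raised to 5, differed by 3-fold or more. Where the dimmer tissue did not exceed background, only a minimum fold can be stated, written as at least that fold.

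Hox genes encode homeodomain transcription factors that lie in 4 clusters. Their order along a cluster follows the order in which they are used from head to tail in the embryo, so that genes of low paralogue number act towards the front and those of high number towards the rear. In the gut they are known from regional patterning, in which the mesenchyme around the epithelium takes a large part, and the posterior genes are known from the hindgut. Cdx factors act upstream of the clusters, Pbx and Meis proteins bind DNA together with Hox proteins, and Polycomb and trithorax proteins keep clusters silent or active. Several clusters are also transcribed from the opposite strand, and such antisense transcripts overlap or adjoin coding genes.

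Both arrays carried the marks of their labelled tissue. Of 8 colon epithelium markers, 6 were 3-fold higher in the colon, and of 7 small intestinal epithelium markers 6 were 3-fold higher in the small intestine. Exocrine pancreas genes were high on the colon array, with all 8 measured markers past 3-fold and a mean level of 11.91 in colon and 3.45 in small intestine. For actin, RNA quality probes gave a 3' end above the 5' end by log2 values of 4.46 in colon and 4.80 in small intestine. For Gapdh the gap was 2.32 in colon and 3.61 in small intestine. For the transferrin receptor, with 3' ends near background, it was 2.33 in colon and 2.09 in small intestine. Hybridization spike-ins, 18 probe sets that should not differ, had a mean colon minus small intestine difference of 0.25 with an SD of 0.67. Their differences ran from -0.33 to 1.52.

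Among the Hox genes, 10 were at least 3-fold higher in colon and 1 in small intestine. These made 27.8% of the 36 members, where 3.33% of all 18194 genes were higher in the colon, and 2.78%, where 3.46% of all genes favoured the small intestine. Among the 11016 genes above background in either tissue, the shares were 5.49% for the colon and 5.71% for the small intestine. The genes higher in the colon were Hoxa9, Hoxa10 and Hoxa11os of the A cluster, Hoxb3, Hoxb4, Hoxb5os, Hoxb6 and Hoxb13 of the B cluster, and Hoxd8 and Hoxd13 of the D cluster. Hoxc8 was the gene higher in the small intestine. On the colon array 17 members lay above background and on the small intestine array 7 did, and 5 members lay above it in both. Of all 18194 genes, 10412 lay above it in the colon, 10418 in the small intestine and 9814 in both. Above background in the colon only were 12 members, where 3.29% of all genes were, and in the small intestine only 2 members, where 3.32% of all genes were. A gene can be brighter in a tissue because more of its cells use the gene or because each cell holds more of its RNA, and these cannot be told apart in bulk tissue. The median floored difference was 0 over the members and 0 over all genes. In both tissues 17 of the 36 members were at background, as were 7178 of all 18194 genes. Without the floor the median was 0.63 over the members and -0.01 over all genes.

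**Figure D1:**
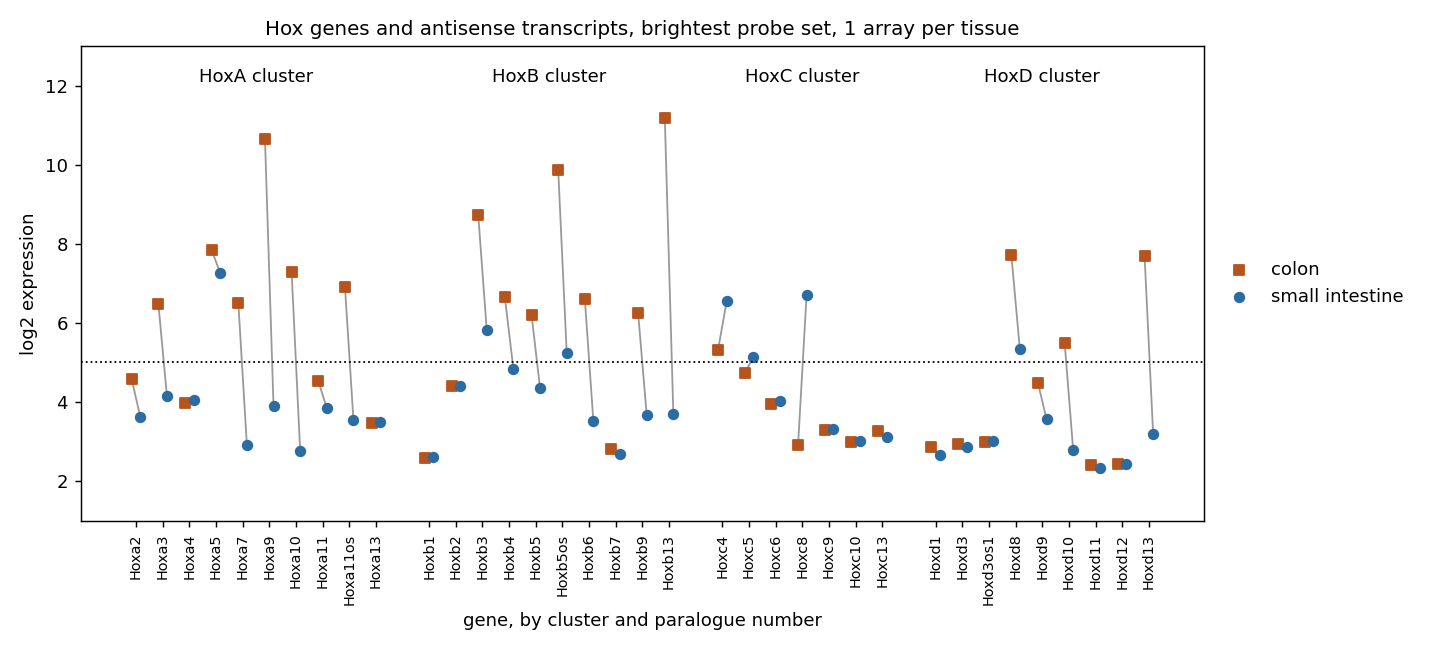
Log2 expression of each of the 36 members on the colon array (squares) and the small intestine array (circles), in order of cluster and paralogue number, where a dotted line marks the background of 5. Hoxb13, Hoxa9 and Hoxb5os reach 11.17, 10.64 and 9.87 in the colon, while Hoxc8 and Hoxc4 have their brighter value in the small intestine.

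The widest differences were those of Hoxb13 and Hoxa9, both posterior genes. Hoxb13, which lies at the posterior end of the B cluster and is also known from the prostate, had 11.17 in colon and 3.71 in small intestine, which is at least 72.2-fold. Hoxa9, a posterior gene also known from blood progenitors, had 10.64 in colon and 3.91 in small intestine, or at least 49.8-fold. Both tissues were thus on opposite sides of the background level for these genes, by a wide margin in the colon. Hoxd13, known from limb digits and the anorectal region, had 7.68 in colon and 3.20 in small intestine (at least 6.41-fold). Hoxa10, which patterns the female reproductive tract among other sites, had 7.28 in colon and 2.77 in small intestine (at least 4.85-fold).

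The other posterior coding genes were dimmer. Hoxb9 had 6.24 in colon and 3.68 in small intestine, and Hoxd10, known from limb innervation, had 5.50 in colon and 2.79 in small intestine. Both were above background in the colon alone, and their floored differences of 1.24 and 0.50 did not reach 3-fold. The remaining 8 of the 14 posterior coding genes, those numbered 9 to 13, were at background in both tissues, namely Hoxa11, Hoxa13, Hoxc9, Hoxc10, Hoxc13, Hoxd9, Hoxd11 and Hoxd12. Thus 6 posterior coding genes exceeded background in the colon and 0 of them did in the small intestine, where 3.29% of all genes were above background in the colon only. Hoxa13 is the group 13 gene of the A cluster and a hindgut gene in the embryo. It had 3.48 in colon and 3.50 in small intestine on its only probe set. Within group 13, Hoxb13 and 1 of the 2 probe sets of Hoxd13 were bright in the colon, and Hoxa13 and Hoxc13 were at background. The other probe set of Hoxd13 had 2.81 in colon. Whether the single dim probe sets of Hoxa13 and Hoxc13 reflect dim genes therefore cannot be told.

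Sequences upstream of the annotated start are shown for 3 of the genes higher in the colon and for Hoxa13, which lies in the same cluster as Hoxa9 and was at background, since CpG-rich starts are typical of Hox clusters. They are the 250 bases before the start in RefSeq, build GRCm38.p6, 5' to 3' on the strand of the gene, with each CG dinucleotide in capitals. The regions are chr6:52227371-52227620 on the minus strand for Hoxa9, chr2:74667975-74668224 on the plus strand for Hoxd13, chr6:52244993-52245242 on the plus strand for Hoxa11os and chr6:52260881-52261130 on the minus strand for Hoxa13.
Hoxa9: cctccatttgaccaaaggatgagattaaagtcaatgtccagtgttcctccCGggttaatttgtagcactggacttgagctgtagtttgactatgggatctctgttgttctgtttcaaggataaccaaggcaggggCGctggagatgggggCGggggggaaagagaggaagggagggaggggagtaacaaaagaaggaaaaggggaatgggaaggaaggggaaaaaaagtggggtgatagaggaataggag
Hoxd13: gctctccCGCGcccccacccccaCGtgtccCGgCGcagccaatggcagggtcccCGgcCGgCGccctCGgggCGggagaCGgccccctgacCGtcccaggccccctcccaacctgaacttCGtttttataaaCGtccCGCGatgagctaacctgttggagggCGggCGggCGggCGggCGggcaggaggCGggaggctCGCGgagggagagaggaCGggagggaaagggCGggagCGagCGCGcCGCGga
Hoxa11os: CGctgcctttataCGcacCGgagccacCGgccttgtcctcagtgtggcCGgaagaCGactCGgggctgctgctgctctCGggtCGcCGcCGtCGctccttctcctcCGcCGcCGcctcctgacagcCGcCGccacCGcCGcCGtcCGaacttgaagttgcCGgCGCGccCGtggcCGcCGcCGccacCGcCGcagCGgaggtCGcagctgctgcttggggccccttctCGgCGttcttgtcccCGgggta
Hoxa13: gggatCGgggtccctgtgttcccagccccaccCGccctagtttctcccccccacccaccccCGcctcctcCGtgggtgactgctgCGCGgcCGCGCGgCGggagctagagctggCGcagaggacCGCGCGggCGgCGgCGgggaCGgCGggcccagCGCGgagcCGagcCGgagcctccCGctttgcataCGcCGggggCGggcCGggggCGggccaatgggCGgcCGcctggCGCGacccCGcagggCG

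These upstream regions differed in their CG content. That of Hoxa9 held 3 CG dinucleotides, a number that 71.0% of the 32851 such regions in the table reached. The region of Hoxd13 held 31, a number that 5.19% of all regions reached, and those of Hoxa11os and Hoxa13 held 35 each, which 2.97% reached. The Hoxa11os region lies downstream of the annotated start of Hoxa11 on the opposite strand. Its CG content therefore cannot be credited to the Hoxa11os start alone. Over the 23 regions found for 21 members the median was 13 CG dinucleotides, against 6 over all regions. The motif TTTATG, a core of Cdx binding sites, stood on either strand in 3 of the 23 regions (13%), those of Hoxa7, Hoxd3 and 1 of the starts of Hoxd11, and in 10.8% of all regions. The Hox and Pbx composite motif TGATNNAT stood in 3 of 23, those of Hoxa2, Hoxb1 and the other start of Hoxd11, and in 7.68% of all. Neither stood in the 7 regions of 6 genes higher in the colon. With 3 regions for each motif no difference from all regions can be read, and neither a match nor its absence shows whether a factor binds.

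Central and anterior genes of the A, B and D clusters differed less than Hoxb13 and Hoxa9, and some were above background in both tissues. Hoxb3, a hindbrain and pharyngeal patterning gene, had 8.73 in colon and 5.81 in small intestine, which is 7.57-fold. Hoxd8 had 7.73 in colon and 5.33 in small intestine (5.26-fold), and both genes were above background in both tissues on these probe sets. On their other probe sets the small intestine values, 4.69 for Hoxb3 and 3.89 for Hoxd8, were at background. Hoxb4, also known from blood stem cells, had 6.64 in colon and 4.84 in small intestine (at least 3.12-fold), and Hoxb6 had 6.60 in colon and 3.51 in small intestine (at least 3.03-fold). Both genes lay just past the threshold, and neither reached it when the arrays were scaled to their spike-ins. Under it was Hoxa7, with 6.50 in colon and 2.92 in small intestine. Hoxa3, known from thymus and parathyroid formation, had 6.49 in colon and 4.16 in small intestine on a probe set open to cross-hybridisation. Its other probe sets were at background in both tissues. Hoxb5, known from enteric neural crest, had 6.20 in colon and 4.35 in small intestine. All 3 were above background in the colon alone and had floored differences of 1.50, 1.49 and 1.20. Hoxa5, known from lung and stomach patterning, had 7.84 in colon and 7.26 in small intestine on its brightest probe set, which is open to cross-hybridisation, and 6.76 in colon and 5.16 in small intestine on the other, which passed 3-fold. Of 19 anterior and central coding genes, 8 were at background in both tissues.

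**Figure D2:**
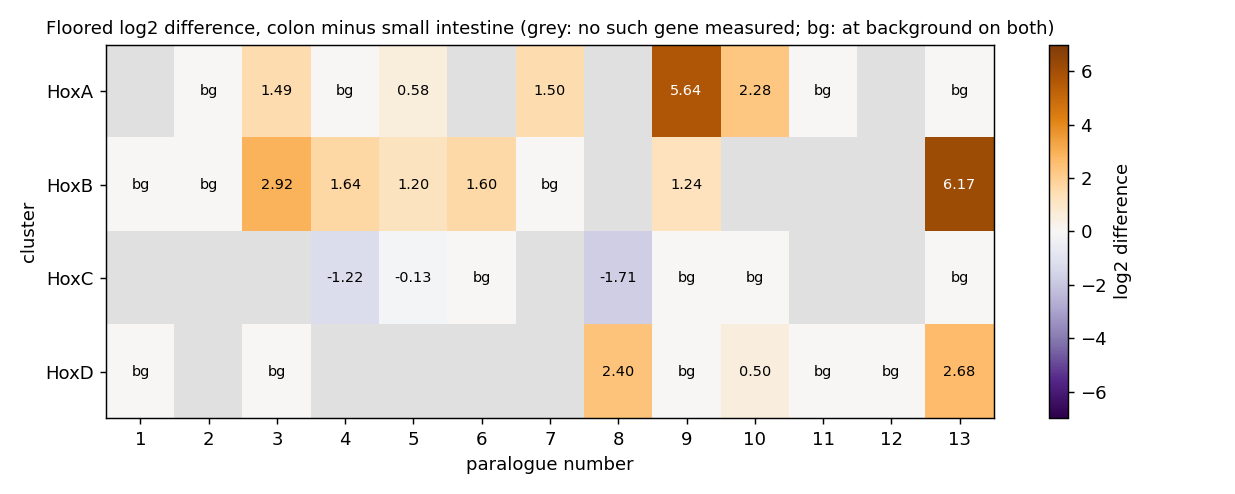
Floored log2 difference, colon minus small intestine, of the 33 coding genes, with clusters as rows and paralogue numbers as columns; orange is higher in the colon and purple higher in the small intestine. The widest differences are 6.17 for Hoxb13 and 5.64 for Hoxa9, and the C cluster row is the one with values below 0.

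The gene 3-fold higher in the small intestine lay in the C cluster. Hoxc8, a gene of thoracic skeletal patterning, had 2.93 in colon and 6.71 in small intestine on its only probe set. Its small intestinal level thus exceeded that of the colon at least 3.27-fold. Hoxc4, known also from lymphocytes, had 5.33 in colon and 6.54 in small intestine, a difference of -1.22 that did not reach 3-fold. Hoxc5 had 4.74 in colon and 5.13 in small intestine, close to background on both arrays. These were the 3 C genes above background in any tissue, and Hoxc8 was the one that passed 3-fold. No C gene reached 3-fold in favour of the colon, against 3 of 10 in the A cluster, 5 of 10 in the B cluster and 2 of 9 in the D cluster. The 4 other C genes, Hoxc6, Hoxc9, Hoxc10 and Hoxc13, were at background in both tissues. Whether clusters differ was not tested.

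On the brightest probe sets, clusters could run in opposite directions within a paralogue group. Each gene called here passed 3-fold on 1 probe set. Hoxc8 did not pass with a background of 6, and Hoxd8 and Hoxb4 did not with the median of a gene's probe sets. In group 8, the D member Hoxd8 was higher in the colon by 5.26-fold and the C member Hoxc8 was brighter in the small intestine by at least 3.27-fold. In group 4, Hoxb4 was higher in the colon, Hoxc4 had its brighter value in the small intestine and Hoxa4 was at background, with 3.97 in colon and 4.05 in small intestine. In group 9, Hoxa9 and Hoxb9 were above background in the colon alone, Hoxd9 had 4.48 in colon and 3.57 in small intestine, and Hoxc9 had 3.30 in colon and 3.32 in small intestine. In group 3, Hoxb3 was higher in the colon, Hoxa3 was above background in the colon on 1 of its 4 probe sets without reaching 3-fold, and Hoxd3 was at background on its probe set.

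Of the 3 antisense transcripts, 2 were higher in the colon. Hoxb5os, which RefSeq places across Hoxb5 and Hoxb6, had 9.87 in colon and 5.25 in small intestine. This is 24.6-fold, with the small intestine value just above background, and with a background of 6 in place of 5 the difference of 4.62 became 3.87. The coding genes it spans had smaller floored differences, 1.60 for Hoxb6 and 1.20 for Hoxb5. Both are minimums, since the small intestine values of these genes lay under background and a floored difference of a dim gene is cut short. Nor can a level be set against that of another probe set. Without the floor, the differences were 4.62 for Hoxb5os, 3.09 for Hoxb6 and 1.85 for Hoxb5. Hoxa11os had 6.92 in colon and 3.54 in small intestine (at least 3.78-fold), whereas Hoxa11, the coding gene it overlaps, had 4.53 in colon and 3.85 in small intestine and was at background in both. On its brightest probe set the antisense transcript was above background in the colon, where the coding gene's probe set was not. The other probe set of Hoxa11os was at background in both tissues, so this contrast rests on 1 probe set for each gene. Hoxd3os1 was at 2.99 in colon and 3.01 in small intestine, and its partner Hoxd3 was at 2.94 in colon and 2.87 in small intestine. The strand that each probe set reads was taken from its gene name and could not be checked in the values.

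Probe sets of the same Hox gene often disagreed. Of the 13 members with 2 or more probe sets, 10 had at least 1 above background and 7 of those had exactly 1. The second probe set of Hoxa9 had 3.26 in colon and 3.15 in small intestine, and that of Hoxa10 had 3.18 in colon and 3.20 in small intestine. The second probe set of Hoxd13 had 2.81 in colon and 2.83 in small intestine, and that of Hoxa11os had 2.41 in colon and 2.61 in small intestine. None of these second probe sets was above background, so the calls for these genes each rest on 1 probe set. Hoxb4 was alike, with 3.50 in colon and 3.51 in small intestine on its other probe set. For Hoxb3 and Hoxd8 both probe sets were above background in the colon and brighter there. The second one had 5.99 in colon and 4.69 in small intestine for Hoxb3, and 5.27 in colon and 3.89 in small intestine for Hoxd8. The 3 other probe sets of Hoxa3 were at background in both tissues, the highest of them with 4.73 in colon and 4.92 in small intestine, and the others of Hoxc5 had at most 3.36 in colon and 3.37 in small intestine. Differences of probe sets of a gene had a pooled SD of 1.84 over the 13 members and of 0.60 over the 9012 genes with several probe sets. No member was past 3-fold with more than 1 of its probe sets, and Hoxb5os, Hoxb6, Hoxb13 and Hoxc8 had a single one to judge by. With the median of a gene's probe sets in place of the brightest one, Hoxa10, Hoxa11os, Hoxb4, Hoxd8 and Hoxd13 did not reach 3-fold.

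**Figure D3:**
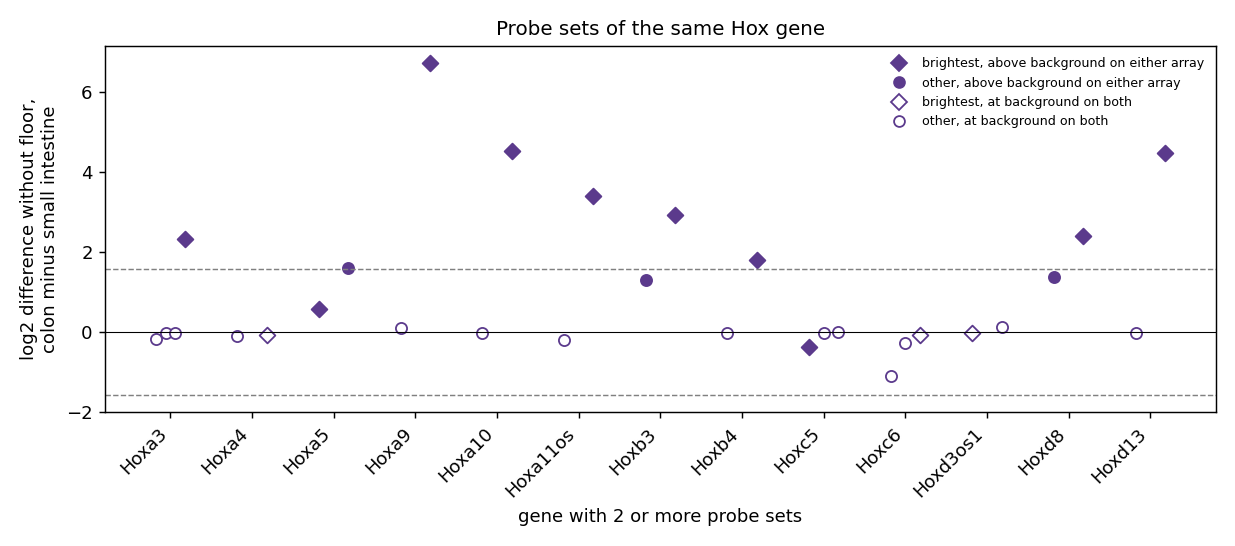
Log2 difference without a floor, colon minus small intestine, of every probe set of the 13 members that had several. Diamonds are the brightest probe sets, open symbols lie at background in both tissues and dashed lines mark 3-fold; for Hoxa9, Hoxa10, Hoxa11os and Hoxd13 a filled diamond stands far above an open circle near 0.

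The 17 members at background in both tissues had levels from 2.33 to 4.58 and differences without a floor from -0.08 to 0.94. Hoxa2 (4.58 in colon and 3.63 in small intestine), Hoxd9 and Hoxa11 were the 3 of them whose value was higher by 0.50 or more in the colon, and none was higher by that much in the small intestine. The others not yet named, Hoxb1, Hoxb2, Hoxb7 and Hoxd1, differed by less than that.

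Among genes that act with or on the Hox clusters, 1 reached 3-fold in favour of the colon and 1 in favour of the small intestine. Of all genes, 3.33% and 3.46% did so, which leaves few calls to find in lists of this size. That few were called is therefore no result about these lists. None of 8 measured cofactors of the TALE class reached 3-fold, and Pbx3 came closest with 9.40 in colon and 8.01 in small intestine (2.62-fold). Pbx2, Pknox1 and Meis2, further partners of Hox proteins on DNA, were above background in both tissues and differed by at most 1.36-fold. Of 6 Cdx and ParaHox genes, Cdx1 had 9.82 in colon and 8.93 in small intestine and Cdx2 had 7.43 in colon and 7.82 in small intestine, and the other 4 were at background in both. In the list of retinoic acid and Gdf11 signalling, of which 14 genes were measured, Aldh1a1 was 3.54-fold higher in the colon and Aldh1a3 12.3-fold higher in the small intestine. These are retinaldehyde dehydrogenases, which make retinoic acid, an inducer of Hox genes in embryos. Aldh1a1 had 13.31 in colon and 11.49 in small intestine, and Aldh1a3 had 5.43 in colon and 9.05 in small intestine. The receptors Rxra and Rxrb were above background in both tissues and did not reach 3-fold. None of 27 Polycomb and trithorax genes reached 3-fold, among them the Polycomb repressive complex subunits Eed (10.50 in colon and 9.96 in small intestine) and Suz12 (9.79 in colon and 10.27 in small intestine). Nor did any of 20 genes that lie near the clusters, with a median of 0.06. Of these, Evx1 and Evx2, named here after their values were seen as the homeobox genes at the posterior ends of the A and D clusters, were at background in both tissues. Of 8 further noncoding transcripts of the clusters, such as Hotair and Hottip, none was named in the probe table used here.

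**Figure D4:**
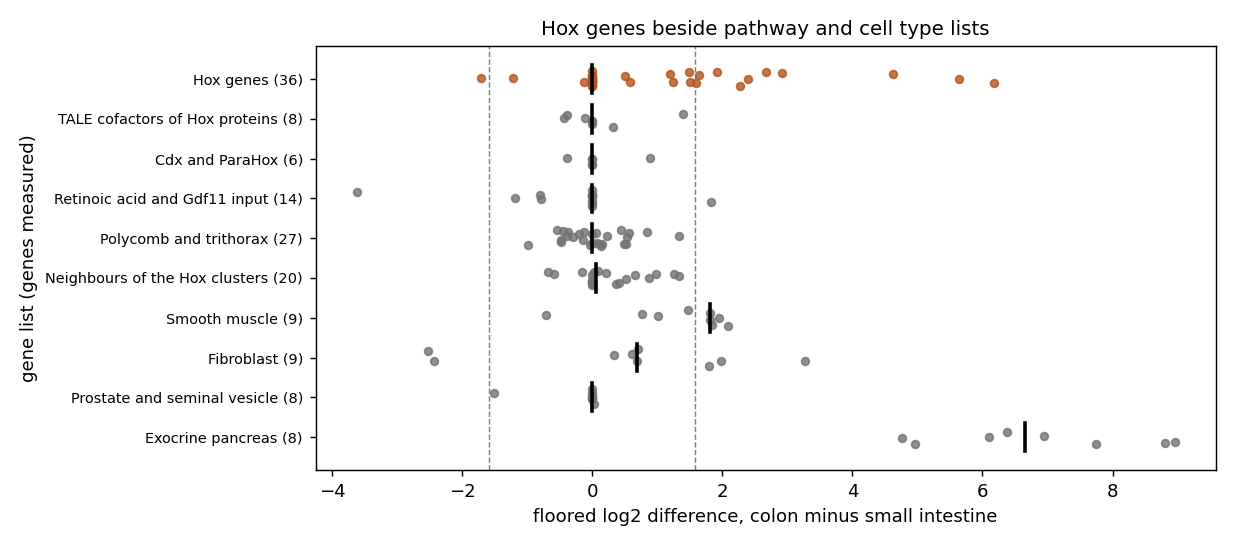
Floored log2 difference, colon minus small intestine, of every measured gene in the Hox set, 5 pathway lists and 4 cell type lists; black bars are medians and dashed lines mark 3-fold. The Hox genes reach from -1.71 to 6.17 around a median of 0, and the smooth muscle median is 1.82.

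Markers of other cells also differed between the arrays and stand beside the Hox counts. Of 9 smooth muscle markers, 5 were 3-fold higher in colon and none in small intestine, with a mean level of 9.87 in colon and 8.53 in small intestine. Of 9 fibroblast markers, 3 were higher in colon and 2 in small intestine, and both pacemaker cell markers and 2 of 7 enteric neuron markers were higher in the colon. The 8 exocrine pancreas markers ranged from 9.76 to 13.95 in the colon and from 2.30 to 5.68 in the small intestine. The part of these cells in the Hox differences was not tested. Prostate and seminal vesicle markers, listed because of Hoxb13, had none of 8 past 3-fold, and the defining genes Pbsn (3.28 in colon and 3.29 in small intestine) and Svs2 (3.63 in colon and 3.65 in small intestine) were at background. Of that list, Tgm4 and Spink1 were above background in both tissues. None of 8 squamous epithelium, 4 mesothelium, 3 glia, 3 adipocyte or 2 erythroid markers reached 3-fold.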

How the data were processed

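Labelled total RNA of colon and small intestine had been hybridised by the authors to Affymetrix mouse genome arrays, 1 per tissue. The values deposited by the authors are log2 expression levels, 1 for each probe set, after normalization. GCRMA is named in the processing notes given with the labels, while the methods of the study name RMA. Which one made these values is not settled by the files, and GCRMA can widen folds against dim values. Values were used as deposited.

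Probe sets were named through the platform annotation, and all 36 members matched RefSeq (GRCm38.p6) by Entrez identifier. Of 45101 probe sets, 34958 named 1 gene. The background of 5 came from earlier work on these values, and the highest of 80 olfactory and vomeronasal receptor probe sets was 4.78. The 3-fold size was taken from the study, which applied it to sequencing data, and is used here on floored array values. Members, lists (6 of pathways, 13 of cell types) and thresholds were chosen with earlier results of these data known. Every member was named, with values for those above background, and of the lists those past 3-fold and a few bright ones. The procedure was tested on simulated data with differences planted in bright genes and little noise. That test does not cover calls that rest on the floor or on 1 of several probe sets. Arrays have no read depth, and precision is limited by their number. Python 3.11.15, numpy 2.4.6, pandas 2.3.3 and matplotlib 3.10.9 were used.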

Additional observations from a re-analysis of the deposited data

How the results depend on the processing

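Of 36 members, 10 were 3-fold higher in the colon and 1, Hoxc8, in the small intestine. Hoxa9, Hoxb3, Hoxb5os and Hoxb13 stayed past 3-fold in all 8 alternatives of floor, scaling and probe set choice. Hoxb5os and Hoxb13 have 1 probe set each, so probe set choice could not change them. No probe set of Hoxa9 or Hoxb3 is marked _x, _s or _a, so leaving those out could not change them. The median for Hoxa9 combines 1 bright probe set and 1 at background, and its floored difference fell from 5.64 to 1.95. With a background of 6 the counts were 6 and 0, with a 5-fold threshold 6 and 0 (shares of all genes 2.74% and 2.83% for the background of 6, and 1.43% and 1.7% for 5-fold), and both dropped Hoxa10, Hoxa11os, Hoxb4 and Hoxb6. With a 2-fold threshold they were 14 and 2, while the shares of all genes were 8.14% and 6.95%. Taking each gene as the median of its probe sets, 5 were higher in the colon, where 2.41% of all genes were. That left out Hoxa10, Hoxa11os, Hoxb4, Hoxd8 and Hoxd13. Leaving out probe sets marked _x, _s or _a gave 8, where 3.03% of the genes still measured were higher in the colon. That was without Hoxa10, Hoxa11os and Hoxb6 and with Hoxa5. Quantile normalization dropped Hoxb6. Without a floor 15 were higher in the colon, where 4.17% of all genes were, and the median difference was 0.63 in place of 0. Centring on spike-ins moved the median of all genes to -0.26 and the calls over all genes to 446 in colon and 837 in small intestine, in place of 605 and 629, and dropped Hoxb4 and Hoxb6. No alternative turned a called gene round. No paired analysis was possible because each tissue has 1 array.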
